A study of Homo sapiens with 7 samples.

Results

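The genes described here are 10 genes of the MYCN-amplified human neuroblastoma line NGP that were expressed in both control libraries and nearly absent from all 4 libraries of ARID1A-/- cells. They are OCIAD2, PLAC9, EDIL3, ECEL1, HSPA12A, FAM162B, LPL, HBE1, CCDC8 and IL13RA2, out of 28517 named entries in the deposited tables. They were selected on the counts and RPKM values (counts scaled to gene length and to the library's total) of the ARID1A-/- and control libraries, so the loss in ARID1A-/- cells is given below as a description and was not tested. The ARID1A+/- library was not used in the choice, and its level against control is the comparison tested. The control libraries serve in both.

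The 7 libraries came from an ARID1A+/- line (1 library), ARID1A-/- line 1 (2), ARID1A-/- line 2 (2) and control NGP cells (2), all grown with puromycin and given no treatment. The KAPA kit was used for ARID1A+/-, and each replicated group had 1 SMARTer and 1 KAPA library. The labels do not say how the mutations were made, whether each line is 1 clone, or whether a line's libraries are from separate cultures. P-values therefore reflect only how far these libraries differ, possibly for technical reasons, and a genotype cannot be told apart from the line that carries it.

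ARID1A belongs to the BAF (SWI/SNF) chromatin remodelling complex, which moves nucleosomes and keeps enhancers and promoters accessible. Neuroblastoma arises from the sympathetic lineage, and its adrenergic cells depend on a circuit of transcription factors that includes HAND2 and GATA3. The 10 genes share no single pathway: they encode secreted and matrix proteins (PLAC9, EDIL3), enzymes (ECEL1, LPL), a cytokine receptor (IL13RA2), a globin (HBE1), an HSP70 relative (HSPA12A), a scaffold (CCDC8) and a pair of less studied proteins (OCIAD2, FAM162B).

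Total counts ran between 24445301 and 43644361 per library. ARID1A RNA was still present in every library, at 19.9 RPKM in ARID1A+/- cells, between 13.8 and 17.2 RPKM in ARID1A-/- cells, and at 22.3 and 22.0 RPKM in control cells. It fell in ARID1A-/- cells (log2 difference from control -0.54 ± 0.09, edgeR adjusted p = 0.012). By line it passed in line 2 (-0.70) and not in line 1 (-0.38), and it did not pass in ARID1A+/- cells (-0.10). A gene-level count does not show a small coding mutation, so it does not check the genotypes. The adrenergic neuroblastoma markers PHOX2A, HAND2, GATA3, ISL1 and MYCN were above 20 RPKM in every library, while TH, the rate-limiting enzyme of catecholamine synthesis, was under 1 RPKM in every library. Erythroid markers, which bear on HBE1, were all under 1 RPKM in every library, and their 7 genes summed to 0 RPKM in ARID1A+/- cells, 0.0377 to 0.381 in ARID1A-/- cells and 0.0383 to 0.934 in control cells. The 6 adipocyte markers, which bear on LPL, summed to 2.79 RPKM in ARID1A+/- cells, 1.56 to 2.90 in ARID1A-/- cells and 2.27 to 2.61 in control cells. Of these LIPE, a lipase of adipocytes, fell in line 2 (log2 difference from control -3.73 ± 0.41, edgeR adjusted p = 0.0027) and did not pass in line 1. Fibroblast markers (7 genes) summed to 85.8 RPKM in ARID1A+/- cells, 43.2 to 222 in ARID1A-/- cells and 81.6 to 82.0 in control cells. In ARID1A+/- cells PDGFRB, DCN, LUM and COL3A1 rose and COL1A1 fell. In ARID1A-/- cells DCN and LUM rose in both lines, while the lines differed for other fibroblast markers. COL3A1 rose in line 1 (log2 difference from control 2.17) and did not pass in line 2 (-0.19). PDGFRB fell in line 2 (-0.97) and did not pass in line 1 (-0.57). COL1A1 rose in line 1 (1.42) and fell in line 2 (-1.34). Their part in the results below was not tested.

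The ARID1A+/- line split the 10 genes. OCIAD2, PLAC9, EDIL3, ECEL1, HSPA12A and FAM162B stood there at 67.6% to 619% of the control level, while LPL, HBE1, CCDC8 and IL13RA2 stood under 1% of it. In bulk RNA, fewer expressing cells and less RNA per cell cannot be told apart. Between those groups no gene of the 10 lay in the range from 5% to 50%. In edgeR's quasi-likelihood test 4 of the 10 genes fell in ARID1A+/- cells and 0 rose. Across all 14723 genes tested, 2.08% were called lower and 1.18% higher. The control libraries, in which the 10 genes had to be expressed, are also the baseline of this test. LPL, HBE1, CCDC8 and IL13RA2 passed the filter for testing only through the control libraries. The count and these shares are therefore not a like comparison.

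**Figure D1:**
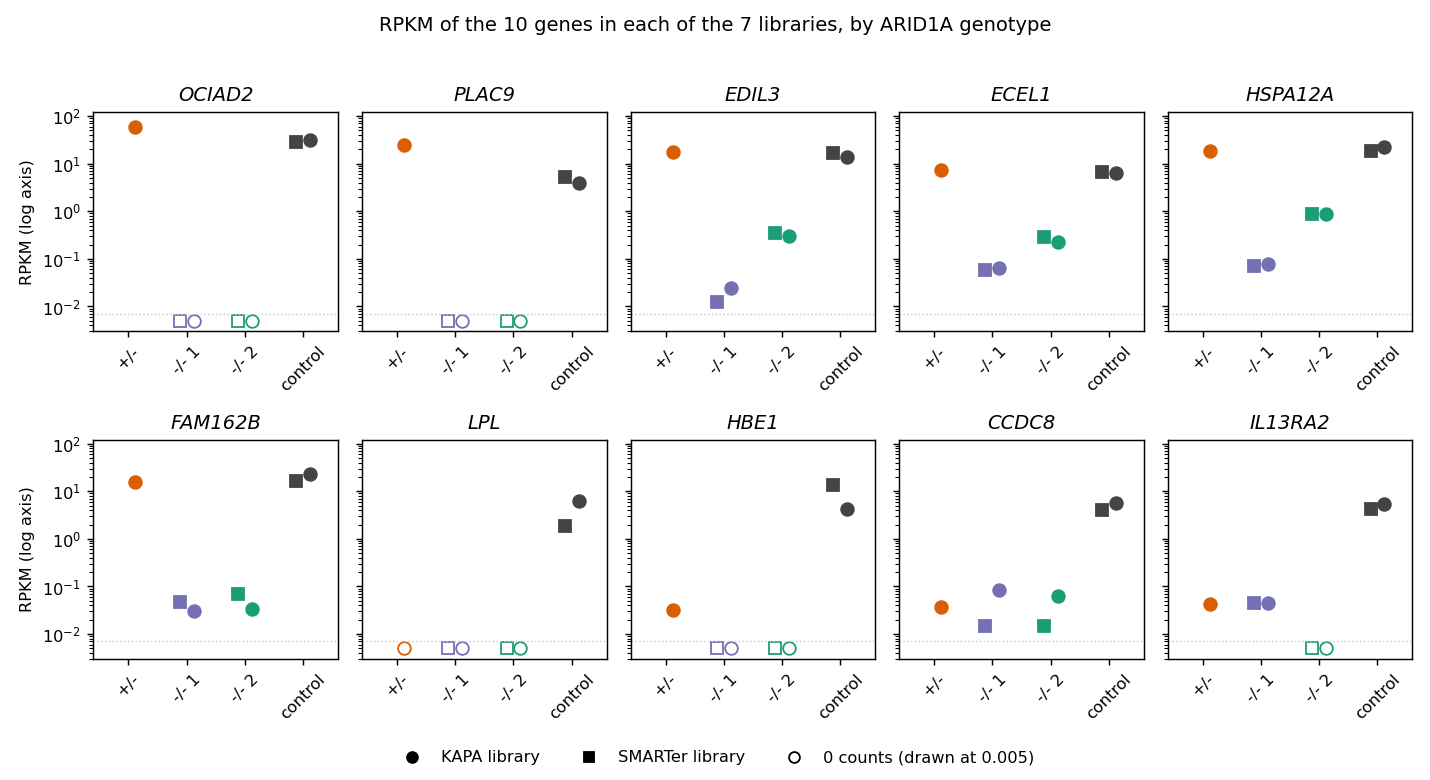
RPKM (log axis) of each gene in the ARID1A+/- library, the 2 libraries each of ARID1A-/- lines 1 and 2, and the 2 control libraries. Circles are KAPA libraries, squares SMARTer libraries, and open symbols libraries with 0 counts, drawn at an arbitrary low position. In 6 genes the ARID1A+/- library lies near or above control, and in LPL, HBE1, CCDC8 and IL13RA2 it lies with the ARID1A-/- libraries.

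The sequences before the start sites differed in base composition, as promoters in general do. RefSeq promoter windows on GRCh38.p14 matched 7 of the 10 genes (EDIL3, ECEL1, HSPA12A, CCDC8, OCIAD2, FAM162B and PLAC9), and the 250 bases upstream of the start were scored for CG dinucleotides, the sites of DNA methylation in vertebrates. Shown are 3 genes that stayed expressed in ARID1A+/- cells and CCDC8, which did not, on their own strand, with each CG in capitals.
PLAC9 (chr10:80131411-80131660, plus strand): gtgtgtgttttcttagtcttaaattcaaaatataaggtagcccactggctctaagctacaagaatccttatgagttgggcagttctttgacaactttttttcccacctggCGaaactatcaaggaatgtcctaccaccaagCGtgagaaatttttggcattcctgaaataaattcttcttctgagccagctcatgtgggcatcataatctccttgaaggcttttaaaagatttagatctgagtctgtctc
OCIAD2 (chr4:48906829-48907078, minus strand): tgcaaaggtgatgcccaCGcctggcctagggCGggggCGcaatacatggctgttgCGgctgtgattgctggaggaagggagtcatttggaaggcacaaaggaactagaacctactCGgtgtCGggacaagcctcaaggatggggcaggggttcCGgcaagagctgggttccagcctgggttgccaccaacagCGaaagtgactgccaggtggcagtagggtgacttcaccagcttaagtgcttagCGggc
FAM162B (chr6:116765720-116765969, minus strand): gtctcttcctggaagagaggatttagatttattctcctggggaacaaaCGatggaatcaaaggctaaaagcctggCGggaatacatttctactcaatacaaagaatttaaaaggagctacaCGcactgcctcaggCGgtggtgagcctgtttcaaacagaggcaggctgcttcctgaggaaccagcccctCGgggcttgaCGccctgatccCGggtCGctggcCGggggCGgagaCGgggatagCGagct
CCDC8 (chr19:46413565-46413814, minus strand): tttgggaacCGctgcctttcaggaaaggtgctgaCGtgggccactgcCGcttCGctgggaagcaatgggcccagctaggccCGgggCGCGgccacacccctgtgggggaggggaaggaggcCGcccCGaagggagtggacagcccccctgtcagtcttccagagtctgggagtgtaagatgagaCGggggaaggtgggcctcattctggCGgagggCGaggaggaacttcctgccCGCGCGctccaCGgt

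The windows held 2 CG in PLAC9, 9 in OCIAD2, 9 in EDIL3, 12 in FAM162B, 16 in CCDC8, 17 in HSPA12A and 41 in ECEL1. Over all 27305 RefSeq windows the median was 11 and the quartiles 3 and 23. The windows of OCIAD2, EDIL3, FAM162B, CCDC8 and HSPA12A lay between these quartiles. PLAC9 lay below the lower quartile and ECEL1 above 98.3% of windows. Both lost their RNA in ARID1A-/- cells and kept it in ARID1A+/- cells. Of LPL, HBE1, CCDC8 and IL13RA2 only CCDC8 had a window, and a link between CG content and RNA level was not tested. The TATA box letters TATAAA, searched on both strands, were in 0 of the 7 windows and in 11.1% of all windows.

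OCIAD2 encodes an OCIA-domain protein of mitochondria and endosomes. It had 58.4 RPKM in ARID1A+/- cells, 0 counts in all 4 ARID1A-/- libraries, and 28.0 (SMARTer) and 30.8 RPKM (KAPA) in control cells. The ARID1A+/- value was the highest of the 7 libraries and was 189.5% of the KAPA control (95% exact binomial interval 172% to 209%, counting error only). The fitted log2 difference of ARID1A+/- minus control was 0.97 ± 0.28 (SE) and missed the threshold (edgeR adjusted p = 0.19). Its paralog and neighbour OCIAD1 had 30.0 RPKM in ARID1A+/- cells, 26.1 to 30.3 RPKM in ARID1A-/- cells and 29.8 and 30.2 RPKM in control cells, so the groups overlapped.

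PLAC9 encodes a small secreted protein first described in placenta. It had 24.8 RPKM in ARID1A+/- cells, 0 counts in all 4 ARID1A-/- libraries, and 5.14 and 4.01 RPKM in control cells. The ARID1A+/- library held 552 counts, against 66 in the KAPA control, which is 619% of the control RPKM (479% to 812%). The log2 difference of 2.68 ± 0.42 just missed the threshold (edgeR adjusted p = 0.056), and it passed under 6 of the 12 alternatives tried (adjusted p between 0.0025 and 1).

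EDIL3, a matrix protein that binds integrins, had 17.9 RPKM in ARID1A+/- cells, 0.0126 and 0.0245 RPKM in ARID1A-/- line 1, 0.345 and 0.297 RPKM in line 2, and 16.8 and 13.7 RPKM in control cells. ECEL1, a membrane peptidase-like protein of neurons in the M13 family, had 7.18 RPKM in ARID1A+/- cells, 0.0570 and 0.0635 RPKM in line 1, 0.281 and 0.222 RPKM in line 2, and 6.60 and 6.32 RPKM in control cells. HSPA12A, a distant member of the HSP70 family, had 18.5 RPKM in ARID1A+/- cells, 0.0715 and 0.0774 RPKM in line 1, 0.873 and 0.877 RPKM in line 2, and 18.1 and 22.2 RPKM in control cells. In all 3 genes the ARID1A+/- library was near control, and the ARID1A-/- libraries were far below both. Their log2 differences of ARID1A+/- minus control did not pass the threshold: 0.39 (95% interval -0.11 to 0.89) for EDIL3, 0.25 (-0.35 to 0.85) for ECEL1 and -0.16 (-0.54 to 0.23) for HSPA12A.

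The same 3 genes kept a trace of RNA that stood higher in ARID1A-/- line 2 than in line 1. Summed over both kits, line 2 held 370 HSPA12A counts, against 33 in line 1. It held 87 EDIL3 counts, against 5 in line 1, and 53 ECEL1 counts, against 13 in line 1. Scaled for depth, line 2 over line 1 was 11.8 (95% exact binomial interval 8.25 to 17.4) for HSPA12A, 18.3 (7.55 to 57.8) for EDIL3 and 4.29 (2.31 to 8.58) for ECEL1, counting error only. For IL13RA2 the order was the other way, with 0 counts in line 2 and 7 in line 1. Over all genes tested, 7.09% were called higher and 5.67% lower in line 2 than in line 1. The choice of the 10 genes used these libraries, so their line differences are a description and were not tested.

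FAM162B is a little studied relative of FAM162A, a mitochondrial protein induced in hypoxia. It had 15.7 RPKM in ARID1A+/- cells, 0.0303 to 0.0711 RPKM in ARID1A-/- cells, and 16.5 and 23.2 RPKM in control cells. The ARID1A+/- value was below both controls, at 67.6% of the KAPA control (60.0% to 76.1%). The log2 difference was -0.44 (95% interval -1.18 to 0.29) and did not pass the threshold, and without the KAPA control library it was 0.75. FAM162A itself had 4.78 RPKM in ARID1A+/- cells, 5.98 to 10.8 RPKM in ARID1A-/- cells, and 9.57 and 7.76 RPKM in control cells, and passed the threshold in neither comparison.

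**Figure D2:**
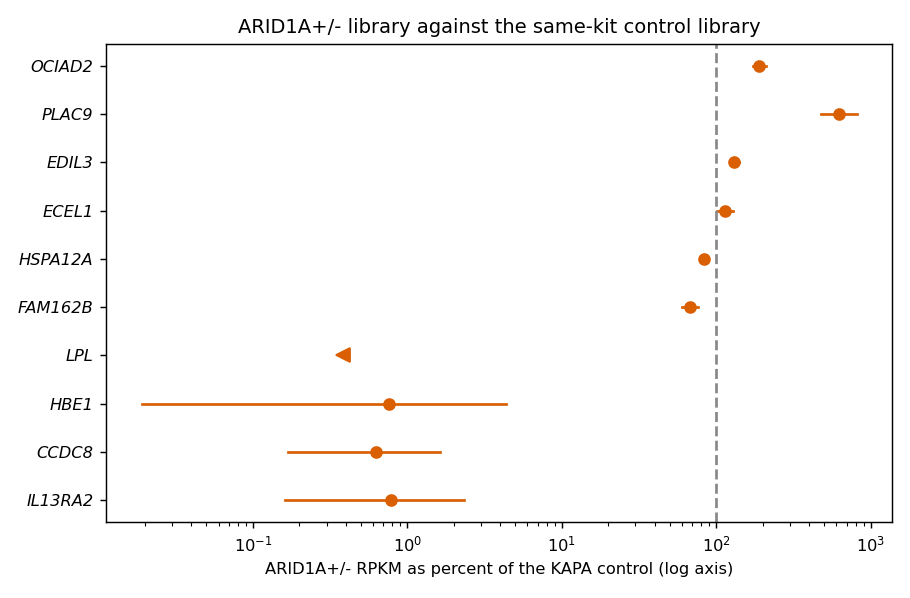
RPKM of the ARID1A+/- library as percent of the KAPA control library (log axis), with 95% exact binomial intervals that cover counting error only. The arrow for LPL, which had 0 counts in the ARID1A+/- library, marks the level that a floor of 3 counts would give, 0.383%, and the 6 genes from OCIAD2 to FAM162B lie between 67.6% and 619%.

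LPL, the lipase that releases fatty acids from triglyceride-rich lipoproteins, had 0 counts in the ARID1A+/- library, 0 counts in all 4 ARID1A-/- libraries, and 1.84 and 6.33 RPKM in control cells. Against a floor of 3 counts in the ARID1A+/- library it was at least 261-fold lower there than in the KAPA control. The test called it lower (edgeR adjusted p = 0.0097), as did 8 of 12 alternatives, but DESeq2 did not (adjusted p = 0.42), and neither did the fit without the KAPA control (adjusted p = 1). The control libraries themselves differed 3.44-fold, KAPA over SMARTer.

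HBE1, the embryonic epsilon-globin, had 0.0317 RPKM in ARID1A+/- cells, from 1 count, 0 counts in all 4 ARID1A-/- libraries, and 13.6 and 4.15 RPKM in control cells. It was at 0.763% of the KAPA control in the ARID1A+/- library (0.0191% to 4.35%), with a log2 difference of -6.83 ± 0.75 (edgeR adjusted p = 0.024). With 1 count, that ± is narrower than the counting interval. The call held in 7 of 12 alternatives and was lost with DESeq2 (adjusted p = 0.73). It was also lost with limma on log2(RPKM + 1) (adjusted p = 0.051) and with edgeR without the kit term (adjusted p = 0.18). Leaving out either control library lost it too, with log2 differences of -6.83 (without SMARTer) and -8.72 (without KAPA). The control libraries themselves differed 3.29-fold, SMARTer over KAPA. The neighbouring fetal globins HBG1 and HBG2, near-identical genes whose reads may be split between them, had 0 counts in ARID1A+/- cells and in all ARID1A-/- libraries. In control cells HBG2 had 43 and 3 counts and HBG1 20 and 1. HBB and HBD were at 0 in every library.

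CCDC8 is a subunit of the 3M complex, which with CUL7 and OBSL1 supports growth and is mutated in 3-M syndrome. It had 0.0363 RPKM in ARID1A+/- cells, 0.0145, 0.0847, 0.0147 and 0.0623 RPKM in the ARID1A-/- libraries, and 4.06 and 5.79 RPKM in control cells. The ARID1A+/- value lay inside the ARID1A-/- range, and its log2 difference from control was -7.46 ± 0.71 (edgeR adjusted p = 0.0066). IL13RA2, a high-affinity receptor that traps interleukin 13, had 0.0428 RPKM in ARID1A+/- cells, 0.0456 and 0.0444 RPKM in line 1, 0 counts in line 2, and 4.15 and 5.44 RPKM in control cells. Its log2 difference was -6.85 ± 0.57 (edgeR adjusted p = 0.0077). Both calls held in 11 of 12 alternatives; CCDC8 missed without the kit term (adjusted p = 0.057) and IL13RA2 without the KAPA control (adjusted p = 0.22).

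Lists of partners and relatives of these genes held 59 other tested genes, of which 3 rose and 6 fell in ARID1A-/- cells, which is near the shares over all genes (4.56% rising and 9.7% falling). In ARID1A+/- cells 1 rose and 0 fell, where 1.18% of all genes rose and 2.08% fell. The one that rose was ITGB5, an integrin beta chain, at 24.3 RPKM in ARID1A+/- cells, against 7.35 and 9.88 RPKM in control cells (log2 difference 1.19 ± 0.21, edgeR adjusted p = 0.037). The median log2 difference over the lists was -0.08 in ARID1A-/- cells and -0.04 in ARID1A+/- cells, against 0.02 and 0.00 over all genes. All 6 tested genes of the 3M list (CCDC8 apart) passed in neither comparison.

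Among the list genes that fell in ARID1A-/- cells were FURIN, a proprotein convertase that cleaves LPL (-0.88 ± 0.12, edgeR adjusted p = 0.0046), LRP8, a lipoprotein receptor (-0.88 ± 0.11, adjusted p = 0.0036), and MYB, a regulator of globin genes (-1.13 ± 0.15, adjusted p = 0.0043). IRS1 and IRS2, adaptors of insulin and interleukin 4 receptors, fell by 0.83 and 1.23 on the log2 scale over both lines. By line both passed in line 1 (-1.11 and -2.15) and not in line 2 (-0.55 and -0.30), and the difference between the lines passed for IRS2 (edgeR adjusted p = 0.0040) and not for IRS1 (adjusted p = 0.21). LRP8 likewise passed in line 1 (-1.36) and not in line 2 (-0.40), with a line difference at adjusted p = 0.0070. HSPA2, a testis-enriched HSP70, differed between the lines (line 2 minus line 1 -6.46 ± 0.37, adjusted p = 0.00039): it had 3.07 and 4.23 RPKM in line 1, 0.0519 and 0.0244 RPKM in line 2, and 3.62 and 4.91 RPKM in control cells. LMF1, which matures LPL, MME, an M13 peptidase, and TYK2, a kinase of the interleukin 13 receptor, rose by 1.48, 1.68 and 0.44 over both lines. By line, LMF1 and MME passed in line 2 (2.08 and 2.29) and not in line 1 (0.87 and 1.08), and TYK2 in line 1 (0.55) and not in line 2 (0.33). The line difference passed for LMF1 (edgeR adjusted p = 0.023) and not for MME (0.092) or TYK2 (0.32). Over all genes, 4.63% rose and 8.32% fell in line 1, 5.3% rose and 8.63% fell in line 2, and 7.09% were higher and 5.67% lower in line 2 than in line 1.

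Neighbouring genes were ordered by the GRCh38.p14 RefSeq table. Of the 20 nearest genes 8 were tested, and 2 fell in ARID1A-/- cells and 0 in ARID1A+/- cells, where 9.7% and 2.08% of all genes fell. Both lie beside PLAC9: ANXA11, an annexin, had 3.95 RPKM in ARID1A+/- cells, 3.23 and 2.16 RPKM in line 1, 0.633 and 0.360 RPKM in line 2, and 4.69 and 2.84 RPKM in control cells. Its ARID1A-/- minus control difference was -1.71 ± 0.15 (edgeR adjusted p = 0.0010), and by line it passed in line 2 (-2.96 ± 0.20) and not in line 1 (-0.46 ± 0.18). TMEM254 differed by -0.85 ± 0.20 (edgeR adjusted p = 0.038), and by line it passed in line 2 (-0.99 ± 0.24) and not in line 1 (-0.70 ± 0.24). The antisense gene of TMEM254, whose reads cannot be told apart without strand, differed by -1.46 ± 0.30.

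With 3 genes on each side, 25 of 60 were tested, and 6 fell and 2 rose in ARID1A-/- cells, where 9.7% of all genes fell and 4.56% rose. In ARID1A+/- cells 2 fell and 0 rose, where 2.08% of all genes fell and 1.18% rose. The largest falls were picked out after their values were seen. KIAA1598, near HSPA12A, had 1.60 RPKM in ARID1A+/- cells, 0.0138 to 0.0939 RPKM in ARID1A-/- cells, and 2.01 and 1.38 RPKM in control cells (ARID1A-/- minus control -5.39 ± 0.28, edgeR adjusted p = 0.00018). It also fits the pattern of the 10 genes. CHRND, an acetylcholine receptor subunit near ECEL1, had 0.552 RPKM in ARID1A+/- cells, 0.0350 to 0.236 RPKM in ARID1A-/- cells, and 2.41 and 1.20 RPKM in control cells (-3.98 ± 0.26, adjusted p = 0.00033). CSGALNACT1, a chondroitin sulfate enzyme gene separated from LPL by INTS10, fell in ARID1A+/- cells (-1.76 ± 0.30, adjusted p = 0.033) and rose in ARID1A-/- cells (2.49 ± 0.18, adjusted p = 0.00053), while INTS10 passed in neither.

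**Figure D3:**
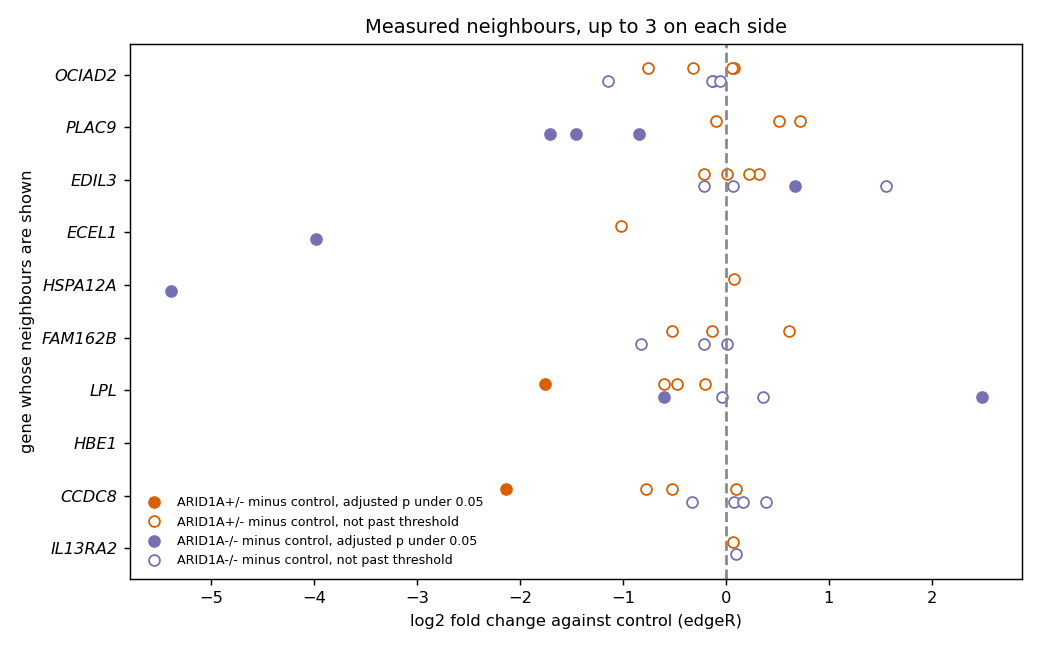
Log2 fold change against control of the tested neighbours, up to 3 on each side of each gene, in ARID1A+/- cells (upper points) and ARID1A-/- cells (lower points). Filled points passed an edgeR adjusted p of 0.05: 2 in ARID1A+/- cells and 8 in ARID1A-/- cells, the lowest at -5.39. No neighbour of HBE1 was tested.

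Across the tables, 46 of 12861 entries with at least 1 RPKM in both controls were at 0.1 RPKM or less in all 4 ARID1A-/- libraries, which is 0.358%. They comprise 7 of the 10 genes and 39 others, since EDIL3, ECEL1 and HSPA12A exceed that limit in line 2. Among the 10 genes, the values nearest the limit inside it were those of CCDC8, at most 0.0847 RPKM, and outside it those of ECEL1, at most 0.281 RPKM. Of the 39 others, 20 carry systematic or antisense names.

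In ARID1A+/- cells 17 of the 39 others were under 5% of the KAPA control, 8 between 5% and 50%, 10 between 50% and 200% and 4 above 200%. Of the 17, 9 are entries with systematic names and at most 5 counts in the KAPA control, so their share in ARID1A+/- cells is poorly fixed. Among the 19 others without systematic or antisense names, 4 were under 5%, 4 between 5% and 50%, 7 between 50% and 200% and 4 above 200%. Of all 12850 tested genes with at least 1 RPKM in both controls, 0.537% were under 5%, and the median was 97.0%. Of the 30 others that were tested, 7 fell in ARID1A+/- cells and 1 rose, where 2.08% of all genes fell and 1.18% rose. The others were chosen for their level in the control libraries, which are also the baseline of this test. All genes were not chosen so, and the shares are not a like comparison.

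**Figure D4:**
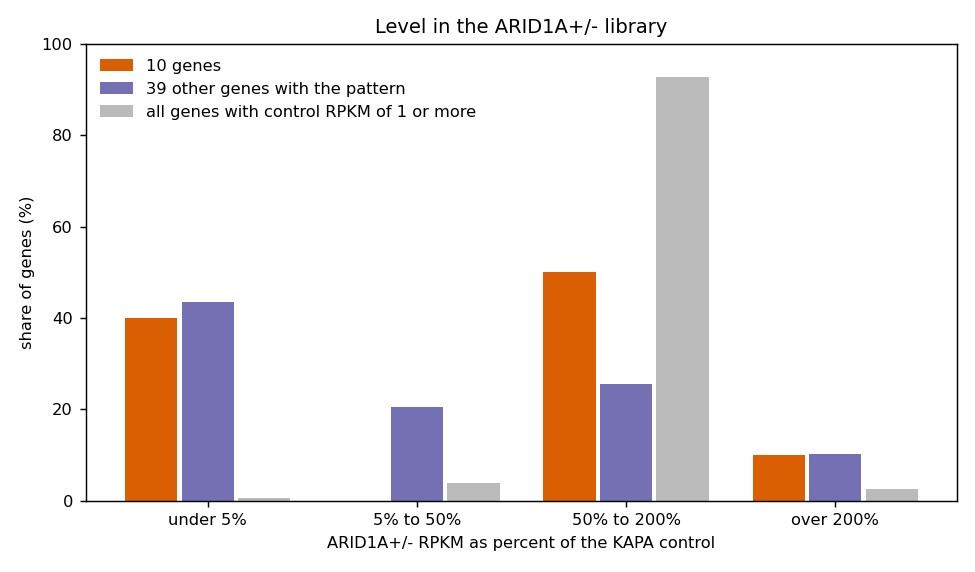
Share of genes (%) by ARID1A+/- RPKM as percent of the KAPA control, for the 10 genes, for the 39 other genes with the pattern and for all 12850 tested genes with at least 1 RPKM in both controls. Of the 10 genes 40% and of the 39 others 43.6% are under 5%, against 0.537% of all genes.

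Leaving out systematic and antisense names, the most abundant of these others in control cells included NEUROD1, MFNG, ABCB1, TCEAL7, MAGEA4, PRTFDC1, HORMAD1, SP140L and INHBB. MFNG, a glycosyltransferase that modifies Notch, was at 0.235% of the KAPA control in ARID1A+/- cells (edgeR adjusted p = 0.0087), while MAGEA4, a cancer-testis antigen, and SP140L, a nuclear body protein, had 0 counts in ARID1A+/- cells (adjusted p = 0.012 and 0.0059). NEUROD1, a neurogenic transcription factor, was at 143%, TCEAL7 at 104%, HORMAD1, a meiotic chromosome protein, at 164% and INHBB, an inhibin subunit, at 77.6%. ABCB1, the multidrug transporter, was at 47.8% and PRTFDC1 at 37.5%, and these 6 did not pass the threshold.

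Over the 7 libraries, the genes most like the mean profile of the 10 included TAF4, SLIT1, PRTFDC1 and FBXW9 (Pearson r between 0.991 and 0.993, on log2(RPKM + 0.1)). The points share kits and lines, and r ignores the size of the change: TAF4 had 10.8 RPKM in ARID1A+/- cells, 7.64 to 8.53 RPKM in ARID1A-/- cells and 12.4 and 12.3 RPKM in control cells.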

How the data were processed

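RNA of 7 libraries was sequenced as single-end reads and, per the submitters' processing notes, mapped to hg19 by HISAT2 2.1.0; how reads were assigned to genes is not given in the sources used here. The authors deposited whole-number counts and RPKM values for 28517 entries per library. Whether reads were counted by strand is not stated, so antisense and overlapping genes are uncertain.

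Genes whose RPKM averaged 0.5 or more across the 7 libraries were tested (14723, with 10 of the 10 described genes). Counts were fitted with edgeR 4.0.16 (quasi-likelihood, TMM, terms for group and kit), with Benjamini-Hochberg adjustment over all tested genes and a threshold of 0.05. The single ARID1A+/- library was assumed to vary like the other groups. The SE after ± is the size of the log2 difference divided by the square root of the test's F statistic. For genes with very few counts, such as HBE1 and IL13RA2 in ARID1A+/- cells, it is narrower than counting error. Differences between kits correlated between groups (r of 0.44, 0.51 and 0.63 over genes), so libraries were paired by kit, which the labels' protocols name. The scripts were tested on simulated data.

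The 10 genes and the gene lists were chosen with earlier results of these data known. The named genes were the 10, their paralogs and nearest neighbours, list genes past the threshold, the 10 most abundant others with the pattern and the 5 most alike; some genes selected this way are not reported here. The line 2 minus line 1 contrast, the 3-gene neighbourhood, the 5%, 50% and 200% limits and the promoters printed were chosen after values were seen. Alternatives were DESeq2 1.42.0, limma 3.58.1 on log2(RPKM + 1) or log2(RPKM + 0.1), other size factors, no filter, no kit term and leaving out each library.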

Additional observations from a re-analysis of the deposited data

Results flagged for a closer look

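In OCIAD2, PLAC9, EDIL3 and ECEL1 the ARID1A+/- library lay above both control libraries, at 58.4, 24.8, 17.9 and 7.18 RPKM, while all 4 ARID1A-/- libraries lay below both. In the edgeR test, the ARID1A+/- minus control difference passed the threshold in none of these genes. The ARID1A+/- library was not tested against the ARID1A-/- libraries. No group holds the 4 libraries that a check for outlying samples needs.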

How the results depend on the processing

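The 6 genes at 50% or more of control in ARID1A+/- cells stayed there with TMM scaling and against the mean of both controls. Of the 4 calls in ARID1A+/- cells, 2 were left with DESeq2, 1 without the kit term as replicate block, and 1 to 6 genes were called when a library was left out (1 without the KAPA control). The ARID1A+/- minus control count of 479 genes became 844 with DESeq2, 273 and 298 with limma, 862 with no filter and 68 with no replicate block, and 56 to 1259 with a library left out. With no replicate block, ARID1A-/- minus control fell to 628 genes, against 2099, line 1 to 497, against 1906, line 2 to 563, against 2051, and line 2 minus line 1 to 411, against 1879. With a library left out these ran over 434 to 3656, 482 to 3128, 515 to 3805 and 748 to 2492. With a library left out, the ARID1A+/- minus control log2 difference ran over -0.22 to 0.0065 for HSPA12A and -0.53 to 0.75 for FAM162B, both positive only without the KAPA control. The 39 other genes with the pattern became 4 with at least 5 RPKM in both controls and 25 with at most 0.05 RPKM in ARID1A-/- cells. Causes were not tested. Depth limits the genes with 0 to 4 counts, whose intervals cover counting error only.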

Other observations

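Some neighbours below the filter on low values had counts in control cells and few or none in ARID1A-/- cells. RFX6, a transcription factor gene near FAM162B, had 0 counts in ARID1A+/- cells, 0 in all ARID1A-/- libraries, and 42 and 12 in control cells. OR51B4 and OR51B5, olfactory receptor genes near HBE1, had 0 counts in ARID1A+/- and ARID1A-/- cells, and 8 and 4 (OR51B4) and 12 and 2 (OR51B5) in control cells. PRSS56, a protease gene beside ECEL1, had 23 counts in ARID1A+/- cells, 6 over the 4 ARID1A-/- libraries, and 46 and 14 in control cells. These were picked out after their values were seen, and for this direction. Other neighbours below the filter did not share it. LRRC66 near OCIAD2 had 77 counts over the 4 ARID1A-/- libraries and 14 over both control libraries. CHRNG near ECEL1 had 60 and 31.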
